A study of Mus musculus with 12 samples.

Results

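The cytosolic ribosome is built from a large 60S and a small 40S subunit, and the genes for its proteins were read in RNA-seq libraries of T helper 1 (Th1) cells, the interferon-gamma-producing class of CD4 T cells. Members were taken by symbol: names starting with Rpl or Rps and a digit, with Rplp0, Rplp1, Rplp2 and Rpsa, and without the Rps6k kinases and names marked as pseudogenes by -ps. The rule found 87 of the 18929 genes of the table. They are 46 proteins of the 60S subunit, 31 of the 40S subunit, 7 paralogs (Rpl3l, Rpl7l1, Rpl22l1, Rpl36al, Rpl39l, Rps4y2 and Rps27l, of which RefSeq lists Rps4y2 as another name of the transcribed pseudogene Rps4l), 2 copies of Rps3a1 that GENCODE annotates as processed pseudogenes (Rps3a2 and Rps3a3), and Rps19bp1, whose product binds RPS19 and is not itself a ribosomal protein. The 46 and 31 subunit proteins, 77 genes, are called core genes here. Fau and Rack1 (listed under its older symbol Gnb2l1) also encode ribosomal proteins but lie outside the naming rule, and 24 rows with -ps in the name were left out.

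All cells came from C57BL/6 mice and were kept for 5 days under conditions that drive Th1 differentiation, after which RNA was taken from sorted cells. The 3 control libraries are of wild-type genotype. The other 3 are labelled Sdhc cKO, a conditional knockout of the gene for the C subunit of succinate dehydrogenase, which is complex II of the respiratory chain and an enzyme of the TCA cycle. The sources used here give neither the Cre line nor the sort, and the labels do not tell whether each replicate is its own animal or culture. The p-values therefore cover the spread between these libraries alone. The series has 12 samples in 5 groups and its other 6 samples were not analysed here.

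Ribosomal proteins are made in nearly equal numbers and assembled with ribosomal RNA in the nucleolus, so their genes are usually expressed together. Most of their mRNAs begin with a run of pyrimidines, the 5′ terminal oligopyrimidine (TOP) motif, through which mTORC1 and the RNA-binding protein LARP1 control their translation and stability. Activated T cells enlarge and divide quickly, and ribosome production is among the largest demands on them. MYC is a main driver of that production. Free RPL5 and RPL11, bound to 5S ribosomal RNA, block MDM2 and so stabilise p53 when ribosome assembly fails.

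The sequences at the transcription starts show what these genes share beside their names. RefSeq promoters (GRCm38.p6, 250 bases before to 50 after the start) were matched for 64 of the 87 members. A gene with several promoters was counted as holding a motif if any of them held it. A pyrimidine tract was searched on the sense strand within 20 bases of either side of the start, as a C followed by at least 6 bases that are each C or T. This definition was set after the sequences had been seen. Of 57 core genes with a promoter, 32 (56.1%) held such a tract. The share was 21.4% of all 27025 gene symbols with a promoter and 23.0% of the 9028 tested genes with one. CGGAAG, the core of ETS-family binding motifs, was searched on either strand of the full 300-base promoter. It was found in 40 of the 57 (70.2%), against 18.8% of all gene symbols with a promoter and 36.5% of the tested ones. Its reverse complement CTTCCG is mostly pyrimidine and can overlap a tract. CACGTG, the E-box bound by MYC and its partners, reads alike on both strands. It was in 6 of 57 (10.5%), against 8.09% of all gene symbols with a promoter and 11.8% of the tested ones. Of 7 genes with a promoter among the paralogs and Rps19bp1, 3 held a tract and 4 held CGGAAG. The windows of 9 members that recur in the results below are shown for the presence and place of the tract. Each runs 5′ to 3′ from 15 bases before to 15 bases after the RefSeq start, with the tract in capitals.
Rps6, chr4:86857353-86857382, minus strand: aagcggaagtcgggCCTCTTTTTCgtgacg
Rplp2, chr7:141447636-141447665, plus strand: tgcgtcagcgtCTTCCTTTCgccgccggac
Rpl38, chr11:114668565-114668594, plus strand: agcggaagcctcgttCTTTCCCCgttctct
Rps27, chr3:90213634-90213663, minus strand: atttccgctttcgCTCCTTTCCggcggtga
Rps26, chr10:128626492-128626521, minus strand: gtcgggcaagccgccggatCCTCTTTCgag
Rpl37a, chr1:72711245-72711274, plus strand: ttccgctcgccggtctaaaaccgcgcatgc
Rpl22l1, chr3:28805493-28805522, plus strand: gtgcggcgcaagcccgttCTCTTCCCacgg
Rps27l, chr9:66946071-66946100, plus strand: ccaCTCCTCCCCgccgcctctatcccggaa
Rpl7l1, chr17:46782642-46782671, minus strand: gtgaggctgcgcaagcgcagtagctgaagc
Among these windows, Rpl37a and Rpl7l1 hold no tract of this form, and the paralogs Rpl22l1 and Rps27l do. RefSeq gives Rps27l another start, at whose window (chr9:66946398-66946427) there is no tract. RefSeq and GENCODE starts differ for some genes, and the GENCODE model of Rpl37a begins past the end of the window shown. A match is a description of these letters and not a measured site.

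Each deposited value is a gene's read count over the size factor of its library and is called a normalised count. Libraries held 18144933 to 21983821 counted reads. Th1 markers summed to 39577 to 44255 normalised counts per library and Cd4 alone to 10113 to 11045. Of the 9 Th1 markers, Ifng (1342 to 1461 in the control and 858 to 880.3 in the cKO libraries) and Tbx21 (1659.7 to 1961 and 1371 to 1501) had lower values in every cKO library than in any control, and neither passed the adjusted test. For each of the remaining Th1 markers the groups overlapped. Over all tested genes, 716 (5.64%) had every cKO value below every control. The B cell marker Ms4a1 and the myeloid markers Lyz2 and Cd14 were at or near 0. Summed myeloid markers, mainly Cd68 and Itgam, ranged from 93.1 to 186 and were highest in cKO 1. Summed markers of CD8 T cells were 235 to 547, of B cells 1624 to 2070 (mainly Ighm), of NK cells 334 to 516 and of erythroid cells 14.8 to 118, with overlapping groups for all but NK cells, whose sum was lower in all 3 cKO libraries. The part of these other cells in the values was not tested. For Sdhc the values were 1683, 1603 and 1892 among the controls against 1452, 1562 and 1655 among the cKO libraries, giving a log2 fold change of -0.15 (SE 0.09) that did not pass the test. A gene-level count cannot show the loss of single exons, and Sdhc thus does not check the labels. The libraries differed in sex-linked RNA. Reads on 4 Y-linked genes were 0.048, 131 and 55.1 RPM (scaled to a common library size) in the control libraries and 0.207, 193 and 189 in the cKO libraries, so control 1 and cKO 1 stand apart as a pair almost without them. The sex-linked RNA Xist had normalised counts of 9780, 2490 and 6406 among the controls against 7565, 0 and 2.15 among the cKO libraries. Controls 2 and 3 thus held both kinds of RNA, and cKO 2 and 3 held Y-linked reads almost without Xist. The first principal component of all tested genes (49.1% of the variance) put control 1 and cKO 1 at one end. There cKO 1 was farthest (-39.9, with control 1 at -22.5 and the others from 8.75 to 24.2).

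No ribosomal protein gene passed the test between the groups. Tested were genes whose value was over 10 in 3 or more libraries, by limma-trend on log2(value + 1), and 86 of the 87 members passed this filter. The muscle paralog Rpl3l did not. Of the 86, 0 were called at a Benjamini-Hochberg adjusted p of 0.05, and 0 had an unadjusted p under 0.05. Over all 12699 tested genes 0 (0%) were called and 445 (3.5%) had an unadjusted p under 0.05. DESeq2 called 0 of the 86 and edgeR 0. The smallest unadjusted p among members was 0.0856, for Rps27l (limma adjusted p = 0.978, the smallest of any member). In bulk RNA, a different number of cells of a type and a different amount of RNA per cell cannot be told apart.

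The intervals show what size of difference these 6 libraries leave room for. For 72 of the 77 core genes the 95% interval of the log2 fold change lay inside ±0.5, a bound set after the values were seen. The exceptions were Rpl23a, Rpl37a, Rps14, Rps3a1 and Rps6. Core log2 fold changes ran from -0.11 to 0.26, and only Rpl37a and Rpl23a exceeded 0.2 in size. Log2 fold changes were positive for 37 of 46 60S genes (median 0.05) and 21 of 31 40S genes (median 0.03), beside 5829 of all 12699 tested genes (median -0.01). With cKO 1 left out the medians were -0.03 for the 60S and -0.02 for the 40S genes. Among all 86 members 60 were positive with a median of 0.04, which was -0.03 without cKO 1, -0.00 without control 2 and -0.01 with array weights, so the sign of the median changed with 1 library. It was 0.11 and 0.13 in the 2 fits with a Y-linked covariate described at the end. Upper-quartile scaling, which moved the split most among the scalings, gave 71 positive of 86 and a median of 0.07.

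**Figure D1:**
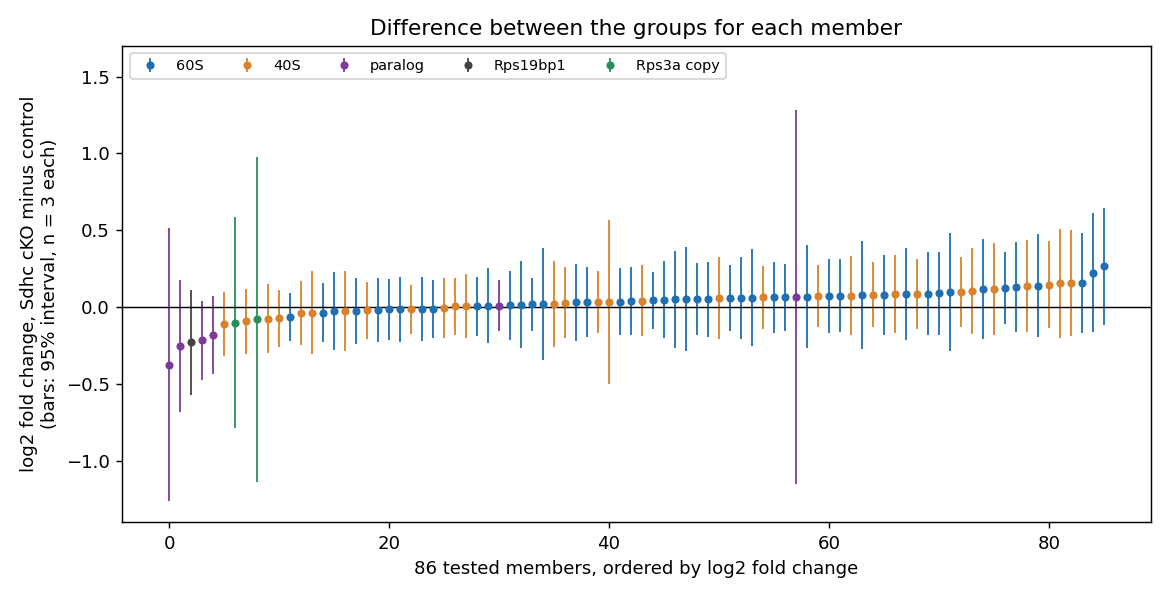
Log2 fold change (Sdhc cKO minus control, on the log2(value + 1) scale) of the 86 tested members in order of size, with 95% intervals from limma-trend and n = 3 libraries per group; colours give the class of gene. All intervals include 0, and the widest belong to Rpl39l, Rps3a3 and Rps4y2.

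The member share of reads was 10.7%, 9.68% and 10.4% in the control libraries and 12.0%, 9.99% and 10.1% in the cKO libraries, means of 10.3 ± 0.527% and 10.7 ± 1.16% (SD, n = 3 each). The groups overlapped, and cKO 1 alone lay above all controls. Without that library the difference in means turned from 0.446 to -0.224 percentage points. When reads on the ribosomal RNA loci Gm26917 and Gm26924 were taken out of the totals, the shares were 11.6%, 10.6% and 11.4% in the control libraries and 13.3%, 11.0% and 11.2% in the cKO libraries, in the same order. The means were then 11.2 ± 0.523% and 11.8 ± 1.27% (SD, n = 3 each). Those loci held 7.96%, 9.02% and 9.10% of reads in the control libraries. In the cKO libraries they held 9.47%, 9.35% and 9.93%, and this difference was not tested.

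The core genes varied together from library to library, also within groups. Their median log2 deviation from the 6-library mean was 0.00, -0.12 and 0.03 in controls 1, 2 and 3 and 0.17, -0.04 and -0.05 in cKO 1, 2 and 3. The spread within each group was thus wider than the distance between groups, with control 2 lowest and cKO 1 highest. For 56 of the 77 core genes cKO 1 held the highest value of the 6 libraries (36 of 46 in the 60S and 20 of 31 in the 40S subunit), and for 52 of 77 control 2 held the lowest. Over all tested genes, cKO 1 was highest for 26.5% and lowest for 32.0%, and control 2 lowest for 16.9%. Paired by replicate number, the median core log2 difference was 0.15 for number 1 (64 of 77 positive), 0.08 for number 2 (62 of 77) and -0.08 for number 3 (1 of 77). The 3 pairs thus did not share a direction.

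**Figure D2:**
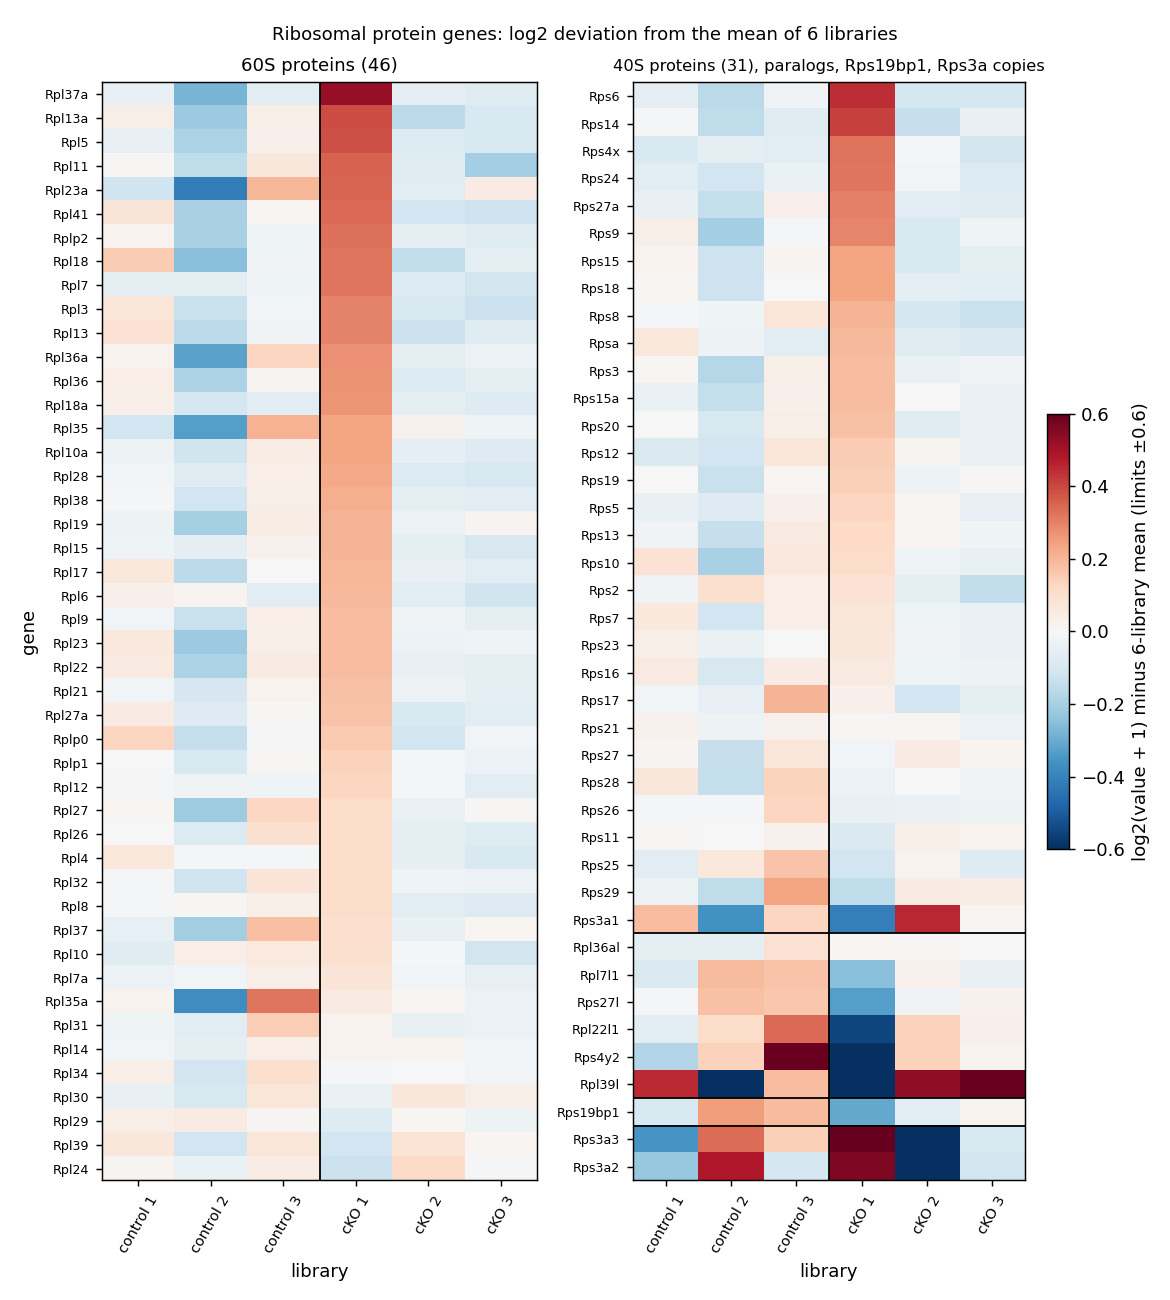
Log2 deviation of each of the 86 tested members (rows) from its mean over the 6 libraries (columns), on the log2(value + 1) scale, with the colour range held at ±0.6 and rows ordered within each class by the value in cKO 1. The cKO 1 column is red for most of the 77 core genes and blue for 5 of the 6 paralogs, Rpl36al being near 0, and the control 2 column is mainly blue for the core genes.

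The size of the cKO 1 excess differed between core genes. The ratio of cKO 1 to the mean of the other 5 libraries, a measure chosen after cKO 1 was seen to stand apart and so given without a test, had a median of 1.15 and ran from 0.698 for Rps3a1 to 1.54 for Rpl37a. It was 1.44 for Rps6, 1.41 for Rps14, 1.38 for Rpl13a, 1.38 for Rpl5 and 1.34 for Rpl11. At the other end Rps29 (0.879), Rpl24 (0.896) and Rps25 (0.908) lay below 1. Across the 77 genes, which share these libraries and are not independent, Spearman's rho of this ratio was 0.117 with transcript length, 0.288 with mean normalised count and 0.142 with GC content. Its median was 1.18 for the 32 core genes with a pyrimidine tract and 1.11 for the 25 without. The ranges of those 2 sets overlapped, from 0.907 to 1.44 with a tract and from 0.698 to 1.54 without. For CGGAAG the order was the reverse, a median of 1.11 for the 40 core genes with it and 1.21 for the 17 without, again with overlapping ranges.

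In the 60S subunit, Rpl37a (chromosome 1, 72711290 to 72713813, plus strand, GRCm38), a small zinc-binding protein, had the largest core log2 fold change. Its normalised counts were 15910.0, 13578 and 15689 among the controls against 23651, 15854 and 15679 among the cKO libraries. Group means were 15059 ± 1288 and 18395 ± 4553 (SD, n = 3 each), giving a log2 fold change of 0.26 (SE 0.16, 95% limits -0.12 and 0.65). The value in cKO 1 stood far above the rest, while cKO 2 and cKO 3 lay within the control range, and without cKO 1 the log2 fold change was 0.07. Rpl23a, which sits beside the exit of the peptide tunnel where nascent chains emerge, came next. It had normalised counts of 6110.0, 4973 and 7620.3 among the controls against 8456, 6362 and 6874 among the cKO libraries, a log2 fold change of 0.23 (SE 0.17, 95% limits -0.16 and 0.61), with control 2 lowest and the groups overlapping. Rpl35, another protein of the tunnel exit, had 3084, 2651 and 3854 among the controls against 3932, 3397 and 3278 among the cKO libraries (log2 fold change 0.16, SE 0.14), again with control 2 lowest.

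The acidic stalk proteins, which recruit the translation factors to the ribosome, did not pass the test. Rplp0, the base of the stalk, had normalised counts of 72507, 60001 and 65916 among the controls against 73911, 61318 and 65564 among the cKO libraries (log2 fold change 0.02, SE 0.12). For Rplp1 they were 36112, 33982 and 36388 among the controls against 39862, 35876 and 35285 among the cKO libraries (log2 fold change 0.06, SE 0.09). Rplp2 had 17635, 15194 and 17046 among the controls against 21829, 16686 and 16525 among the cKO libraries (log2 fold change 0.13, SE 0.13). All 3 were highest in cKO 1 and lowest in control 2, by more for Rplp2 than for Rplp1.

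Rpl5 and Rpl11, the proteins of the 5S particle that binds MDM2, were likewise highest in cKO 1. Rpl5 had normalised counts of 24769, 22479 and 26159.7 among the controls against 33515, 24197 and 24047 among the cKO libraries, a log2 fold change of 0.14 (SE 0.14, 95% limits -0.19 and 0.47). Those of Rpl11 were 14875, 13344 and 15507 among the controls against 18936, 14064 and 12862 among the cKO libraries (log2 fold change 0.05, SE 0.15, 95% limits -0.29 and 0.39), and its lowest library was cKO 3, so the 2 extremes of Rpl11 both lay in the cKO group. Of 10 tested genes of MDM2, p53 and its targets, 4 had positive and 6 negative log2 fold changes (median -0.02), and 0 were called.

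Several other 60S genes were named for what they do. Rpl3, part of the peptidyl transferase centre, had normalised counts of 43374, 37655 and 40848 among the controls against 50809, 38675 and 37705 among the cKO libraries (log2 fold change 0.05, SE 0.14). Rpl10, one of the last proteins to join the maturing subunit, had 21737, 23539 and 23830.0 among the controls against 24439, 22686 and 21181 among the cKO libraries (log2 fold change -0.02, SE 0.09). Neither fold change exceeded its SE. Rpl38, needed for the translation of Hox mRNAs in the embryo, had 12454, 11575 and 12844 among the controls against 14601, 12107 and 11959 among the cKO libraries (log2 fold change 0.06, SE 0.10). Rpl41, the smallest ribosomal protein, had 23273, 19275 and 22242 among the controls against 27936, 20365 and 20217 among the cKO libraries (log2 fold change 0.07, SE 0.14). In each of these 4 genes cKO 1 was the highest library and the other cKO values lay within or below the control range.

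Rpl13a and Rpl29 marked the contrast within the subunit. Rpl13a, also known for silencing certain inflammatory mRNAs when released from the ribosome, had normalised counts of 60616, 50852 and 60672 among the controls against 77645, 53135 and 55559 among the cKO libraries (log2 fold change 0.10, SE 0.16), with cKO 1 far above and cKO 2 and 3 between control 2 and the other controls. Rpl29 had 11833, 11949 and 11678 among the controls against 10964, 11651 and 11298 among the cKO libraries, and every cKO value lay below every control. Its difference was small, means of 11819.9 ± 136 and 11305 ± 343 (SD, n = 3 each) and a log2 fold change of -0.06 (SE 0.07, 95% limits -0.22 and 0.09). In the 40S subunit Rps26, which contacts mRNA upstream of the decoding site, showed the same order, with 22009, 21898 and 24168 among the controls against 21445, 21533 and 21663 among the cKO libraries and a log2 fold change of -0.07 (SE 0.08, 95% limits -0.26 and 0.11). These 2 were the only members whose groups did not overlap in that direction, 2 of 86 against 716 of all tested genes (5.64%). The reverse, all cKO values above all controls, occurred in 0 of 86 members and in 573 tested genes (4.51%).

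In the 40S subunit, Rps6 (chromosome 4, 86854660 to 86857412, minus strand), the substrate of the S6 kinases downstream of mTORC1, had normalised counts of 21891, 20294 and 22409 among the controls against 30830.1, 21134 and 21112 among the cKO libraries. Group means were 21532 ± 1102 and 24359 ± 5604 (SD, n = 3 each), giving a log2 fold change of 0.16 (SE 0.15, 95% limits -0.20 and 0.51). Apart from cKO 1 the 5 libraries lay close together, and without it the log2 fold change was -0.03. Rps14, lost in a form of myelodysplastic anaemia, had 37505, 33986 and 35883 among the controls against 50236, 34327 and 36654 among the cKO libraries (log2 fold change 0.16, SE 0.15, 95% limits -0.19 and 0.50), with the same single high library. Rps19, the gene most often mutated in Diamond-Blackfan anaemia, had 29027, 26533 and 29341 among the controls against 32099, 28489 and 29238 among the cKO libraries (log2 fold change 0.08, SE 0.09). It varied less, with cKO 1 above and control 2 below the rest.

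Rpsa, whose product docks at the mRNA exit side of the subunit, had normalised counts of 85995, 80487 and 78766 among the controls against 94121, 78170.0 and 77379 among the cKO libraries (log2 fold change 0.02, SE 0.12). Rps27a, made as a fusion of ubiquitin to the ribosomal protein, had 21965, 20465 and 23085 among the controls against 27865, 21561 and 21535 among the cKO libraries (log2 fold change 0.11, SE 0.12). Rps24 had 41134, 39830.3 and 41874 among the controls against 53727, 42567 and 40673 among the cKO libraries (log2 fold change 0.15, SE 0.12). In all 3 cKO 1 was again the highest library. For Rpsa cKO 2 and 3 lay just below the controls, and for the other two within or close to their range. Rps27 had 24978, 22465 and 25932 among the controls against 24420.4, 25510.5 and 24977 among the cKO libraries (log2 fold change 0.03, SE 0.09), with control 3 highest and cKO 1 second lowest. Rps29 had 13837, 12747 and 16658 among the controls against 12743, 14637 and 14609.6 among the cKO libraries (log2 fold change -0.04, SE 0.12), with control 3 highest and cKO 1 and control 2 lowest. These 2 small zinc-finger proteins were thus among the genes that did not share the high value of cKO 1.

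Among ribosomal proteins outside the naming rule, Fau, a ubiquitin-like fusion to the 40S protein RPS30, had normalised counts of 17269.6, 16879.7 and 16756 among the controls against 24725, 16514 and 16672 among the cKO libraries (log2 fold change 0.16, SE 0.15). The cKO 1 value exceeded the other 5, which lay between 16514 and 17269.6. Rack1, a scaffold on the 40S head, had 53531, 48313 and 51744 among the controls against 59021, 48601 and 48862 among the cKO libraries (log2 fold change 0.02, SE 0.11). Both followed the core genes in having their highest value in cKO 1.

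The paralogs had their lowest median in cKO 1, where the core median was highest, and the difference between the lists was not tested. Their median log2 deviation was -0.06, 0.12 and 0.18 in the control libraries and -0.44, 0.08 and 0.02 in the cKO libraries. The deviation in cKO 1 was -0.55 for Rpl22l1, -0.33 for Rps27l, -0.25 for Rpl7l1 and 0.01 for Rpl36al. It was -1.03 for Rpl39l and -0.72 for Rps4y2, which rest on few reads. In the pairs by number, the median over these 6 genes and Rps19bp1 was -0.32 for number 1 (1 of 7 positive), -0.00 for number 2 (3 of 7) and -0.17 for number 3 (1 of 7). Of the 6 tested, 4 had negative log2 fold changes, and the median of -0.20 was -0.07 without cKO 1. None of the 6 was called, and Rps19bp1 was not either.

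Rpl22l1 (chromosome 3, 28805436 to 28807424, plus strand) can take the place of Rpl22 in the ribosome and is held down by RPL22, a protein needed for the development of alpha-beta T cells. Rpl22l1 had normalised counts of 1940.4, 2193 and 2571 among the controls against 1389, 2239 and 2078 among the cKO libraries. Group means were 2234 ± 317 and 1902 ± 451 (SD, n = 3 each), giving a log2 fold change of -0.25 (SE 0.19, 95% limits -0.68 and 0.18). Its lowest value was in cKO 1, and without that library the log2 fold change was -0.04. Rpl22 itself had 13083, 11043 and 13089 among the controls against 14295, 12204 and 12082 among the cKO libraries (log2 fold change 0.05, SE 0.10), highest in cKO 1. Rpl22l1 thus amounted to 14.8%, 19.9% and 19.6% of Rpl22 in the control libraries and 9.72%, 18.3% and 17.2% in the cKO libraries, with the groups overlapping.

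Rps27l (chromosome 9, 66946086 to 66949516, plus strand), a p53-inducible paralog of Rps27, had normalised counts of 2767, 3154 and 3116 among the controls against 2216, 2751 and 2841 among the cKO libraries. Group means were 3013 ± 213 and 2603 ± 338 (SD, n = 3 each), giving a log2 fold change of -0.22 (SE 0.11, 95% limits -0.47 and 0.04), which was -0.11 without cKO 1. It lay between 9.07% and 14.0% of Rps27 in all 6 libraries. Rpl7l1, a nucleolar relative of Rpl7 that acts in ribosome assembly, had 1403, 1699 and 1677 among the controls against 1250.4, 1515 and 1445 among the cKO libraries (log2 fold change -0.18, SE 0.11, 95% limits -0.43 and 0.07). Its share of Rpl7 was between 3.41% and 4.13% among the controls and 2.35%, 3.76% and 3.66% among the cKO libraries. For both genes cKO 1 was lowest and control 2 highest, and the groups overlapped. In each of the 3 pairs by number the cKO value lay below the control for both genes, and also for Rps19bp1. The core genes Rpl29, Rps25 and Rps26 had this order too. The share of all tested genes with this order was not counted.

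Rpl36al, a retrocopy of Rpl36a that encodes nearly the same protein, had normalised counts of 3079.6, 3087 and 3414 among the controls against 3223, 3219 and 3196 among the cKO libraries (log2 fold change 0.01, SE 0.07). It amounted to 30.8% to 44.5% of Rpl36a. Reads shared between these 2 genes could be counted for either, so both values are uncertain. The rest of the paralogs were barely detected. Rpl39l had normalised counts of 21.3, 8.82 and 17.6 among the controls against 7.03, 22.6 and 23.7 among the cKO libraries. Rps4y2 had 9.26, 11.8 and 16.5 among the controls against 6.03, 11.7 and 10.8 among the cKO libraries, and Rpl3l was between 0 and 5.56. Rps19bp1 had 187, 238 and 229 among the controls against 162, 192 and 203 among the cKO libraries (log2 fold change -0.23, SE 0.15, 95% limits -0.57 and 0.11), with cKO 1 lowest and control 2 highest as for Rpl7l1.

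**Figure D3:**
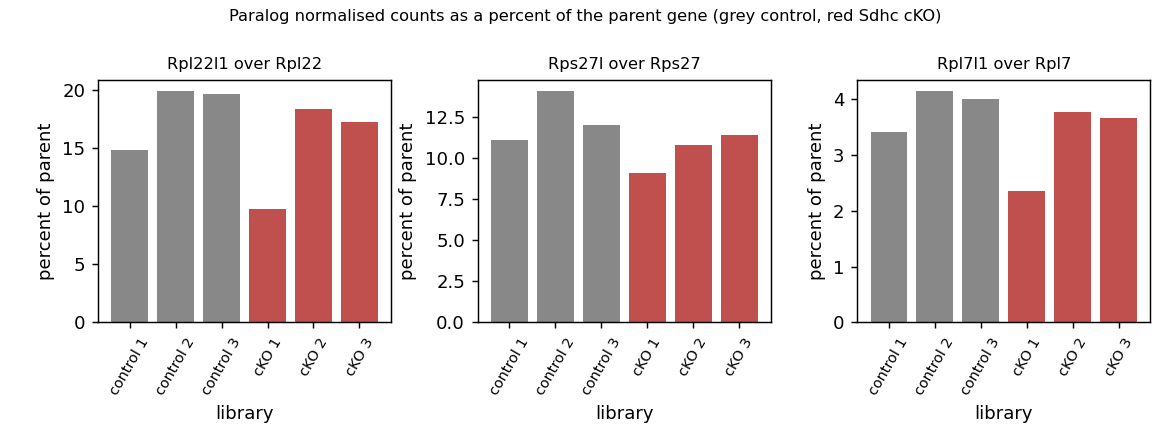
Normalised counts of 3 paralogs as a percent of their parent gene in each library (bars from 0; grey control, red Sdhc cKO; 1 bar per library and no error bar). In each panel cKO 1 is the lowest bar, 9.72% for Rpl22l1, 9.07% for Rps27l and 2.35% for Rpl7l1, and the groups overlap.

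Rps3a1 (chromosome 3, 86137940 to 86142702, minus strand), a 40S protein, was the core gene with the largest coefficient of variation, and its 2 annotated copies varied inversely to it. The coding sequence of Rps3a1 has 795 bases. Rps3a3 was identical to it at 786 of 795 aligned bases (98.9%) and Rps3a2 at 788 of 792 (99.5%), by the GENCODE M21 transcripts. Over bases 201 to 260, counted from the first base of the coding sequence or, for the copies, of the annotated transcript, the 3 sequences are shown to give the scale of the likeness, with capitals where a copy differs from Rps3a1.
Rps3a1, bases 201 to 260: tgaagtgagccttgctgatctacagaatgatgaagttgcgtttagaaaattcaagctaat
Rps3a3, chr13:108670803-108670862, plus strand: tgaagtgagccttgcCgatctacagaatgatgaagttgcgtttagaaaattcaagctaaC
Rps3a2, chr14:88123549-88123608, minus strand: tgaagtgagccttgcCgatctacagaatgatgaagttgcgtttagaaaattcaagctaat
Rps3a3 differs at 2 and Rps3a2 at 1 of these 60 bases, so a read that lies between the differing bases matches more than 1 locus.

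Rps3a1 had normalised counts of 22464, 15367 and 21588 among the controls against 14863, 27059.6 and 19924 among the cKO libraries, a log2 fold change of 0.03 (SE 0.23, 95% limits -0.50 and 0.57). Rps3a3 had 6086, 9819 and 8584 among the controls against 15696, 3783 and 7313 among the cKO libraries (log2 fold change -0.08, SE 0.45). It was highest in cKO 1 and control 2, the 2 libraries in which Rps3a1 was lowest, and lowest in cKO 2, in which Rps3a1 was highest. The sum of the 3 loci was 29225, 26289.9 and 30909 in the control libraries and 31725, 31363 and 27969.7 in the cKO libraries. Its coefficient of variation over the 6 libraries was 7.26%, against 22.8% for Rps3a1 and 47.7% for Rps3a3. The sum therefore varied about as much as a typical core gene, whose median was 8.01%. Rps3a3 took 20.8%, 37.3% and 27.8% of the sum in the control libraries and 49.5%, 12.1% and 26.1% in the cKO libraries. As the 3 loci are near-identical, reads could be counted for any of them, and each of the 3 values alone is uncertain.

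**Figure D4:**
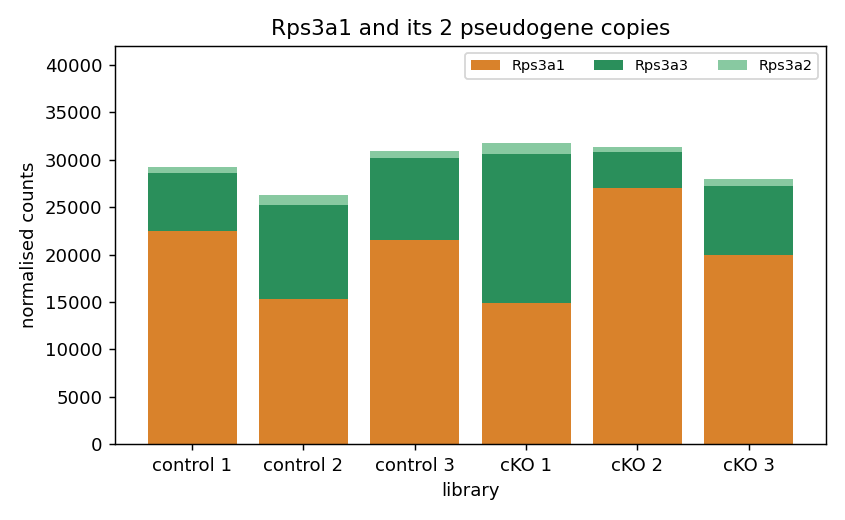
Normalised counts of Rps3a1, Rps3a3 and Rps3a2 stacked for each library (bars from 0; 1 bar per library and no error bar). The division between Rps3a1 and Rps3a3 shifts most in cKO 1 (Rps3a3 at 49.5% of the sum) and cKO 2 (12.1%), while the total stays between 26289.9 and 31725.

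Levels were compared between genes as normalised counts per kilobase of transcript, with the median length of the protein-coding GENCODE transcripts of each gene. Over the 77 core genes they ran from 1918 to 82478 per kilobase, a 43.0-fold range, with a median of 31857. The highest were Rps24 (82478), Rpl13a (77492), Rplp1 (72647), Rps27 (71634) and Rps15 (69109.8). The lowest were Rpl24 (1918), Rpl35 (3558), Rps15a (5648), Rpl22 (6168) and Rps20 (8789). For 3 of these the length weighs on the value, since the transcript models are long, 5130.0 bases for Rps15a, 3706 for Rps20 and 2048 for Rpl22. Rpl24 and Rpl35 have shorter models than these 3, of 677 and 946 bases, and were low in reads as well. Normalised counts for Rpl24 were 1311, 1260.4 and 1339.7 among the controls against 1184, 1404 and 1293 among the cKO libraries. The sources used here do not tell whether reads that matched several places were counted. These genes have many pseudogene copies, and the part of that step in the order of levels was not tested. The left-out rows with -ps in the name held 0.0346% to 0.0457% of the members' sum. That share does not cover pseudogenes without the suffix. Rps3a3, annotated as one, took 12.1% to 49.5% of the sum of Rps3a1 and its copies.

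The coefficient of variation over the 6 libraries, both groups together, ran from 1.83% to 22.8% for core genes, with Rps3a1 and Rpl37a (21%) the highest. After removal of the shared movement, as the SD of the log2 deviation from the core median of each library, the most variable were Rps3a1 (0.373), Rpl23a (0.186), Rps29 (0.182), Rpl35a (0.181) and Rpl37a (0.18). The least variable were Rpl21 (0.0137), Rpl9 (0.016), Rps20 (0.0175), Rpl38 (0.0227) and Rplp1 (0.0272). Rpl21 had normalised counts of 21774, 20542 and 22376 among the controls against 24929.6, 21598 and 21239 among the cKO libraries (log2 fold change 0.06, SE 0.09) and Rpl9 had 34016, 31389 and 35405 among the controls against 39129, 33959 and 33125 among the cKO libraries (log2 fold change 0.07, SE 0.10), both following the libraries' core median closely. Rpl35a had 5998, 4561 and 7368 among the controls against 6120.4, 5946 and 5758 among the cKO libraries (log2 fold change 0.02, SE 0.16). Its extremes were 2 controls, and the cKO values lay together between them.

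Genes that work with the ribosomal proteins were read from lists of textbook members. Of 16 other TOP mRNAs, 6 had positive and 10 negative log2 fold changes (median -0.03) and 0 were called. Eef1a1, the elongation factor that brings tRNA to the ribosome and a known TOP mRNA, had normalised counts of 348028, 362206 and 353401 among the controls against 394909, 344836 and 337884 among the cKO libraries (log2 fold change 0.02, SE 0.16), highest in cKO 1. Eef2, the translocation factor, had 163145, 169852 and 168469.8 among the controls against 168770.4, 157491 and 162014 among the cKO libraries (log2 fold change -0.04, SE 0.12), with no library apart. In cKO 1 the median deviation of the other TOP mRNAs was 0.00, where that of the core genes was 0.17.

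Of 13 regulators of TOP mRNAs and mTORC1, 5 were positive and 8 negative (median -0.03), and 0 were called. Larp1 had normalised counts of 7045, 6929 and 6661 among the controls against 6263, 7241 and 6699 among the cKO libraries (log2 fold change -0.03, SE 0.08), lowest in cKO 1. Of 8 genes of MYC and its partners, 3 were positive and 5 negative (median -0.07), and 0 were called. Myc had 3070.3, 3942 and 3411 among the controls against 2558, 3222 and 2818 among the cKO libraries (log2 fold change -0.28, SE 0.12, 95% limits -0.55 and -0.00). The groups of Myc overlapped, and its unadjusted p of 0.0495 did not pass after adjustment (limma adjusted p = 0.978). Of 7 chaperones and import factors of ribosomal proteins, 1 was positive and 6 negative (median -0.13), and 0 were called.

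Translation initiation factors and mitochondrial ribosomal proteins lay on the other side of the core genes. Of 34 initiation factors, 5 were positive and 29 negative (median -0.11, -0.04 without cKO 1). Of 75 mitochondrial ribosomal proteins, 11 were positive and 64 negative (median -0.11, -0.05 without cKO 1). In both lists 0 genes were called, and in 3 and 9 of them, respectively, all cKO values lay below all controls, beside the 5.64% of all tested genes given above. In cKO 1 the median deviation was -0.16 for the initiation factors and -0.15 for the mitochondrial ribosomal proteins, and in control 2 it was 0.09 and 0.10. The libraries with the highest and the lowest cytosolic ribosomal protein levels were thus, in these lists, the lowest library and one of the higher ones. These differences between lists were not tested.

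**Figure D5:**
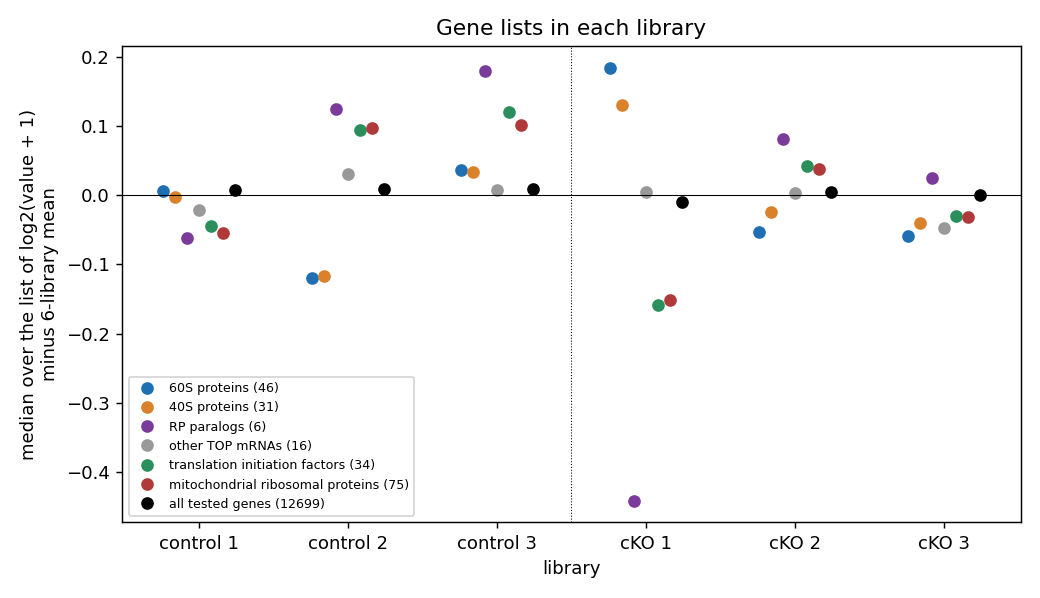
Median over each gene list of the log2 deviation from the 6-library mean, by library, on the log2(value + 1) scale; 1 point per list and library, with the number of tested genes in the key. The 60S and 40S points are lowest in control 2 (both -0.12) and highest in cKO 1 (0.18 and 0.13), where the paralogs are at -0.44.

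Because control 1 and cKO 1 almost lack Y-linked reads, the comparison was also fitted with the Y-linked share of reads as a covariate, a setting first chosen with these data in view. Here limma-trend called 826 genes (6.5%), 209 higher (1.65%) and 617 lower (4.86%). It called 6 of the 86 members (6.98%), a share near that of all tested genes when both directions are counted together. Higher were Rpl37a (0.44, limma adjusted p = 0.0117), Rplp2 (0.26, limma adjusted p = 0.0425) and Rps6 (0.31, limma adjusted p = 0.0498). Lower were Rps27l (-0.33, limma adjusted p = 0.0191), Rpl22l1 (-0.43, limma adjusted p = 0.0454) and Rpl7l1 (-0.28, limma adjusted p = 0.0481). In this limma-trend fit 30 of the 86 members (34.9%) had an unadjusted p under 0.05, 26 of them higher. Over all 12699 tested genes 3280 had one. With edgeR and the same covariate 670 genes (5.28%) were called, 245 higher (1.93%) and 425 lower (3.35%), and again 6 of the 86 members. Members higher in edgeR were Rpl37a (adjusted p = 0.0153), Rplp2 (0.0372), Rps14 (0.0402), Rps6 (0.0417) and Rpl5 (0.0499), and Rps27l (0.0285) was lower. Rpl37a, Rplp2, Rps6 and Rps27l were called by both. In edgeR 38 of the 86 members (44.2%) had an unadjusted p under 0.05, 34 of them higher, beside 3205 of all tested genes. In the 20 alternatives without the covariate none of the 8 genes named here passed, and their adjusted p (limma, edgeR or DESeq2) was at least 0.283, the value of Rps27l with the replicate block. The median log2 fold change of all 86 members was 0.11 with the covariate in limma-trend (67 positive) and 0.13 in edgeR (70 positive), the highest of the settings tried. With libraries of numbers 2 and 3 only, 2 against 2 and all with Y-linked reads, 0 members were called. With numbers 2 and 3 only, the median log2 fold change was -0.00 for the core genes and -0.15 for the paralogs. Unadjusted p under 0.05 was reached by 4 of the 86 members, Rps27l, Rpl7l1, Rps3a2 and Rps3a3, all lower, beside 929 of all tested genes (7.32%).

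The replicate block, which compares same-numbered libraries, called 1 gene and 0 members. It gave unadjusted p under 0.05 to 4 of 86 members, Rpl37a in the higher and Rpl22l1, Rpl7l1 and Rps27l in the lower direction, beside 1596 of all tested genes (12.6%).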

How the data were processed

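Per the submitters' processing notes, reads were processed with STAR, HTSeq and DESeq2 on mm10. The sources used here give no versions, annotation, strand or multi-mapping settings. Libraries were made with an Illumina TruSeq kit, per the labels' protocols. The deposited signal values are counts divided by a size factor by the authors: 100% are whole multiples of 1 step per library (tolerance 0.01). Limma-trend (limma 3.58.1, R 4.3.3) was run on log2(value + 1) for all 12699 genes over 10 in at least 3 libraries, with Benjamini-Hochberg adjustment at 0.05. edgeR 4.0.16 and DESeq2 1.42.0 used the recovered reads. Only the main limma-trend fit was tested on simulated data, with changes larger than those of the core genes here. Positions and lengths come from GENCODE M21 (GRCm38, the assembly of mm10), in which 86 of 87 members were found, and promoters from RefSeq.

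Members and lists were chosen with earlier results of these data known. Named members were the paralogs and Rps19bp1, those whose groups did not overlap, 14 fixed for their role, any called under an alternative, and 5 at each end of level per length and of relative SD. Libraries with the same number deviated together from their group means (r across genes of 0.579, 0.458 and 0.188, each over 0.1), so the number was used as a block. Control 2 with cKO 3 gave 0.272, above the value for number 3, and control 3 with cKO 2 gave 0.0912. The remaining pairs of unlike number were negative, from -0.504 to -0.179. Number 3 is thus not set apart as a pair by these values, and the labels do not say what the number marks. The alternatives were other filters, pseudocounts, scalings and tools, array weights, the block, the Y-linked covariate, each library left out, and replicates 2 and 3 only.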

Additional observations from a re-analysis of the deposited data

How the results depend on the processing

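Genes called over the whole table numbered 0 in the main test, 2 with DESeq2, 1 with array weights, whose fit did not reach its convergence tolerance, 1 with the replicate block, 3 with replicates 2 and 3 only, 826 with the Y-linked covariate and 670 with it in edgeR. Leaving out single libraries gave 0 to 1, the 1 without cKO 1. Members called numbered 0 throughout, except 6 with the Y-linked covariate in limma-trend and 6 in edgeR, and the block changed no member's call. The unfiltered table, the filter of 50, the pseudocounts of 0.1 and 5, the TMM, total-count and upper-quartile scalings, totals without the ribosomal RNA loci, edgeR and limma-voom each called 0 genes.

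With single libraries left out, the median member log2 fold change ran from -0.03 to 0.08, the 60S median from -0.03 to 0.09, the 40S median from -0.02 to 0.08 and the difference in read share from -0.224 to 0.801 percentage points. Over the 22 alternatives, 12 of 856 values of the 39 named members newly passed the test, all with the Y-linked covariate. In 24 of these members the sign of an uncalled log2 fold change turned at least once, 81 times in all. Groups of 3 libraries set the precision here, since depth leaves counting error small for most members. Values of Rpl39l, Rps4y2 and Rpl3l rest on few reads.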
